A study of Mus musculus with 48 samples.

Results

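The genes described here are 31 genes of the p53 pathway and the DNA damage response, taken by name from a deposited count table of 24411 genes. All 31 are in the table and all 31 passed the filter on low counts, among 12634 genes that did. They comprise p53 itself (Trp53 in the mouse) with its feedback regulators (5 genes), cell cycle arrest genes (5), apoptosis genes and death receptors (9), genes of autophagy, redox and stress signalling (6), and genes of nucleotide supply and DNA repair (6). The ribosomal protein gene Rps27l is counted with the last class. RNA was read from macrophages recovered by bronchoalveolar lavage (BAL), a wash of the airspaces. The mice were male, and each group held 3 of them. The 8 groups were Siglec-F knockout (KO) and wild type (WT) mice, each naive or at day 7, 14 or 21 after bleomycin at 2.5 units/kg by the intratracheal route (IT). Naive mice are named so in their titles and are otherwise labelled as saline controls at day 0. Siglec-F is a receptor for sialic acids on the surface of alveolar macrophages. The sources used here do not give the mice's age, how the knockout was made or how macrophages were separated from other lavage cells, nor do they say whether the 3 mice of a group were littermates.

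Bleomycin cleaves DNA, and DNA strand breaks activate the kinases ATM and ATR, which act through CHK2, CHK1 and p53. The p53 protein is a transcription factor that is held low by the ubiquitin ligase MDM2 and is controlled mainly at the protein level. Once stabilised it raises genes that halt the cell cycle, such as Cdkn1a, genes that lead to cell death, such as Bbc3, and genes of its own feedback, such as Mdm2.

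The p53 protein binds DNA through half-sites of 10 bases, and a full site is a pair of half-sites up to 13 bases apart. Promoter windows from RefSeq (GRCm38.p6, 250 bases before to 50 after a start site) matched 23 of the 31 genes, with 33 windows in all. Pmaip1, Tnfrsf10b, Perp, Trp53inp1, Zmat3, Rrm2b, Ddb2 and Xpc had no window. The p53 half-site consensus, which reads the same on both strands, was found in 12 of the 33 windows (36.4%), against 2745 of 32851 windows of all genes (8.36%). Counted by gene, 11 of 23 members held a half-site (47.8%), against 9.55% of all genes. A full site was in 1 member window, that of Cdkn1a, and in 24 windows of all genes (0.0731%). A match is a description of these letters and not a site shown to be bound. The members were chosen as p53 and its target genes, so no conclusion is drawn from their higher share. Among the 12 windows, those of Aen overlap and hold the same half-site. Gtse1, Aen and Rps27l also held half-sites and were called higher in at least 1 comparison below, Trp53 and Ppm1d held them and were called only lower, and Ei24 and Polk held them and were not called. Only perfect matches to the consensus were counted and marked. A near match, such as the bases that directly follow GAACATGTCT in Cdkn1a, stays in lower case, so a marked pair need not be the bound site. The 4 stretches below are examples, with half-sites in capitals: Cdkn1a holds the full site so counted, Mdm2 and Ccng1 are feedback genes of p53, and Sesn1 had the largest called fold change.
Cdkn1a: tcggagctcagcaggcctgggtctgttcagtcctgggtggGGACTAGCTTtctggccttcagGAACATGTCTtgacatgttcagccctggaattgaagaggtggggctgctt
Mdm2: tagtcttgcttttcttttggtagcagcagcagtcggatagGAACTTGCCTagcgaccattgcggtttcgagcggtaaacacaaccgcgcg
Ccng1: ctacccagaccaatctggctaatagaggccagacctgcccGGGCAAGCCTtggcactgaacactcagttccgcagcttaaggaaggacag
Sesn1: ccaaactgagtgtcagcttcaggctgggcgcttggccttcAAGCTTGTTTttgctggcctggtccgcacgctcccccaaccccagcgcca
The Cdkn1a stretch is chr17:29090866-29090977 on the plus strand and lies before the more upstream of its 2 annotated starts, which are 2790 bases apart. The Mdm2 stretch is chr10:117710895-117710984 and the Ccng1 stretch chr11:40755422-40755511, both on the minus strand. The Sesn1 stretch is chr10:41887226-41887315 on the plus strand, before the downstream of its 2 starts, which are 76865 bases apart.

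Library totals ran from 24877049 to 47457085 counts per mouse. Siglecf, the targeted gene, had 0 to 25 counts in the 12 KO libraries, against 2631 to 20368 in the 12 WT libraries. The ribosomal RNA gene Rn45s took 0.743 to 8.19% of counts, and its highest values were in WT day 7 mouse 1 and WT naive mouse 1 (6%). KO day 14 mouse 3 and KO day 21 mouse 1 stood apart from the other mice after bleomycin, with the first principal component scores closest to those of naive mice. In a list of 21 genes of recruited monocytes and interstitial macrophages, 20, 19 and 19 were called higher in KO mice at days 7, 14 and 21, and 20 on each day in WT mice. Levels here are CPM, counts scaled by edgeR to equal library totals. The summed level of these genes was 5330 to 23000 CPM in KO mice after bleomycin and 797 to 897 CPM in KO naive mice, and 8720 to 24400 CPM in WT mice after bleomycin and 823 to 965 CPM in WT naive mice. KO day 14 mouse 3 and KO day 21 mouse 1 had 7460 and 5330 CPM, and KO day 7 mouse 3 had 6640 CPM. Of the 21 genes, 3 were at 0 in KO naive mice, Plac8 and Tmem119 among them, and Ly6c2 and Plac8 were at 0 in WT naive mice. Summed over 20 genes of resident alveolar macrophages, KO mice had 13800 to 34400 CPM after bleomycin and 36700 to 38200 CPM when naive, and WT mice had 14600 to 27000 CPM after bleomycin and 34900 to 41800 CPM when naive. The summed levels of both lists did not overlap between bleomycin and naive mice of either genotype. Genes of other cell types were called higher too, at lower levels, though not all of their summed levels rose. Of 12 tested genes of T and NK cells, 9, 9 and 10 were called higher in KO mice at days 7, 14 and 21, and 11, 8 and 8 in WT mice. Of 10 dendritic cell genes the counts were 5, 3 and 4 in KO and 7, 6 and 6 in WT mice, and of 15 epithelial genes they were 3, 8 and 8 in KO and 8, 7 and 10 in WT mice. Of 7 neutrophil genes they were 3, 2 and 3 in KO and 3, 4 and 5 in WT mice, and of 5 red blood cell genes 3, 3 and 3 in KO and 1, 1 and 4 in WT mice. In each comparison 0 to 2 genes of each list were called lower. No summed level of any of these 5 lists exceeded 448 CPM, found in WT naive mouse 1. Median T and NK sums in KO mice were 397 CPM when naive, then 128, 257 and 113 CPM at days 7, 14 and 21. WT mice had 412 CPM when naive, then 169, 203 and 184 CPM. Median epithelial sums were 266 CPM in KO naive mice, then 145, 231 and 146 CPM. In WT mice they were 277 CPM, then 145, 123 and 148 CPM. Median neutrophil and red blood cell sums were above naive mice on each day in both genotypes. Dendritic cell medians were too, except at KO days 14 and 21. The part of all these cell type genes in the values below was not tested. In bulk RNA, fewer cells of a type and less RNA per cell cannot be told apart.

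Among naive mice the members spanned a wide range of levels per length of exon. Perp, a membrane protein gene of cell adhesion and p53-dependent apoptosis, was the highest with 102 CPM per kb of exon in KO naive and 101 CPM per kb in WT naive mice. Ccng1, the cyclin G1 gene, followed with 62.6 CPM per kb in KO and 59.8 CPM per kb in WT naive mice. Rps27l, a ribosomal protein gene related to Rps27, came next in both genotypes. Sesn1, Ddb2, Tnfrsf10b and Eda2r were the lowest in both, with Sesn1 at 0.902 CPM per kb in KO and 0.834 CPM per kb in WT naive mice. These are group means with exon lengths from GENCODE M21, which also gave the gene positions below.

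Each bleomycin group was set against the naive mice of its genotype in 1 edgeR model over the 24 mice, and genes with a p under 0.05 after Benjamini-Hochberg adjustment over all 12634 genes count as called. In KO mice, 10 members were called higher and 6 lower at day 7, where 19.7% of all genes were called higher and 14.4% lower. At day 14 in KO mice, 4 were higher and 2 lower, against 12% and 4.84% of all genes. At day 21 in KO mice, 5 were higher and 3 lower, against 15% and 6.89% of all genes. In WT mice, 12 were higher and 3 lower at day 7, against 20.2% and 15.3% of all genes. At day 14 in WT mice, 8 were higher and 3 lower, against 18.7% and 13.4%, and at day 21, 8 were higher and 6 lower, against 18.8% and 13.7%. As a share of the 31, the members called higher were 32.3% in KO and 38.7% in WT mice at day 7, above the share of all genes in both. At days 14 and 21 they were 12.9% and 16.1% in KO mice, close to it, and 25.8% on each day in WT mice, above it. Members called lower were 19.4%, 6.45% and 9.68% in KO mice at days 7, 14 and 21. These were above the share of all genes at day 7 and close to it at days 14 and 21, with 2 and 3 members. In WT mice they were 9.68%, 9.68% and 19.4%, above that share at day 21 only. No test was made of these shares. The median log2 fold change of the members at day 7 was 0.10 in KO and 0.34 in WT mice, and that of all genes was 0.02 in each. The 3 comparisons of a genotype share its naive mice, so their calls are not independent of each other. A gene called in one genotype and not in the other is not thereby shown to differ between them, and the tests of that difference are given with the genotype comparison.

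**Figure D1:**
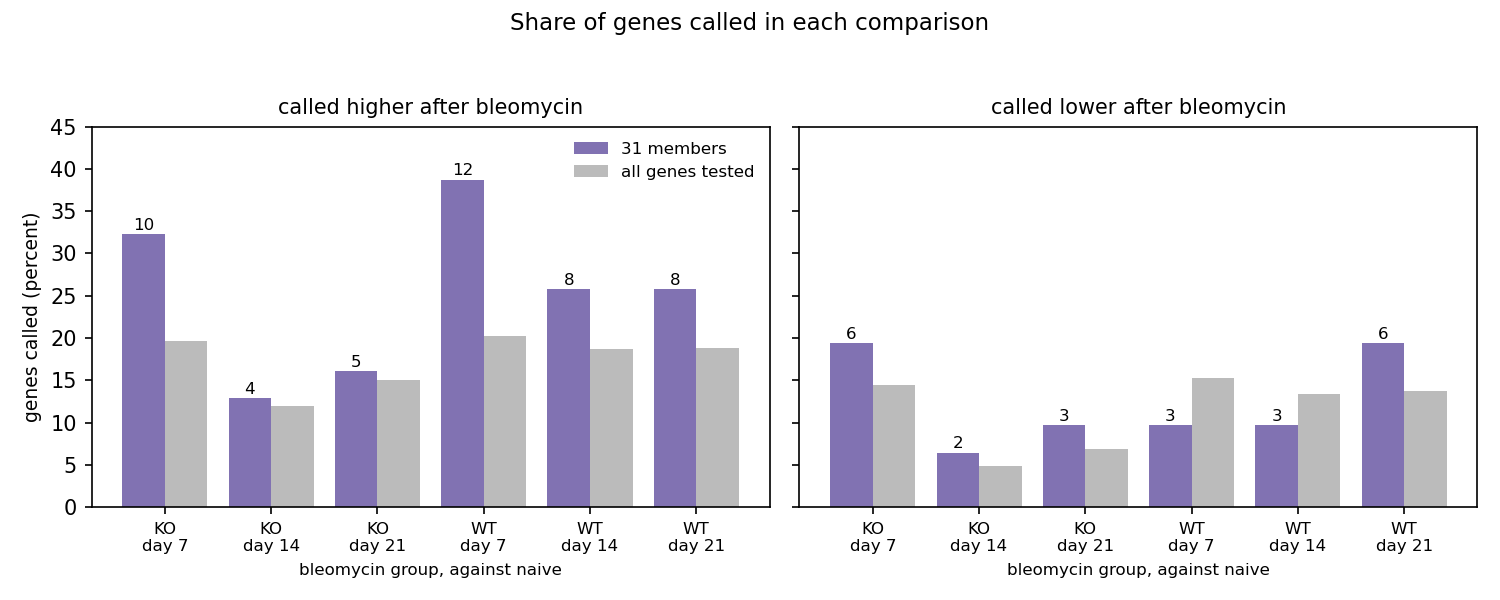
Share of genes called (percent, from 0) in each bleomycin group against naive mice of the same genotype, for the 31 members (purple, with the number of members above the bar) and for all 12634 genes tested (grey), with genes called higher on the left and lower on the right. Members called higher exceed the grey bar most at day 7, with 10 in KO and 12 in WT mice.

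Of the 31 genes, 25 were called in at least 1 of the 6 comparisons. Among them 14 were called higher only, 9 lower only, and Cdkn1a and Plk3 in both directions. Plk2, Perp, Trp53inp1, Sesn1 and Zmat3 were called in all 6. Fas, Eda2r, Ei24, Sesn2, Ddb2 and Polk were called in none. How many of all genes were called in at least 1 or in all 6 comparisons was not counted, so these numbers are not read as particular to the members. Single comparisons called 16.9% (KO day 14) to 35.5% (WT day 7) of all genes in either direction. Of the 70 calls of members, 42 were smaller than 2-fold. Under every alternative tried, 35 of the 70 calls were kept, and 0 calls changed direction.

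Some calls depended on how the model was fitted. With only the 2 compared groups in the model, edgeR adjusted p-values at KO day 7 were 0.094 for Ercc5 and 0.071 for Rrm2b, and at KO day 21 they were 0.073 for Plk2, 0.2 for Trp53 and 0.06 for Zmat3. At WT day 7 they were 0.17 for Aen, 0.052 for Ccng1, 0.071 for Dram1, 0.051 for Mdm2, 0.091 for Rps27l, 0.18 for Trp53inp1 and 0.061 for Zmat3, so that 7 of the 15 calls there were lost. With mouse number as a block in that model of WT day 7 and WT naive mice, an alternative added after seeing the data, all 15 were kept and 18 members were called. Without the filter on low counts, calls were lost for Ercc5 (0.052) and Rrm2b (0.052) at KO day 7, for Trp53 at KO day 21 (0.06) and WT day 21 (0.052), and for Trp53inp1 at WT day 7 (0.062). With RLE scaling the Trp53 call at KO day 21 was lost (0.052). Calls that ended when 1 mouse was left out are given with each gene below, by mouse and adjusted p.

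**Figure D2:**
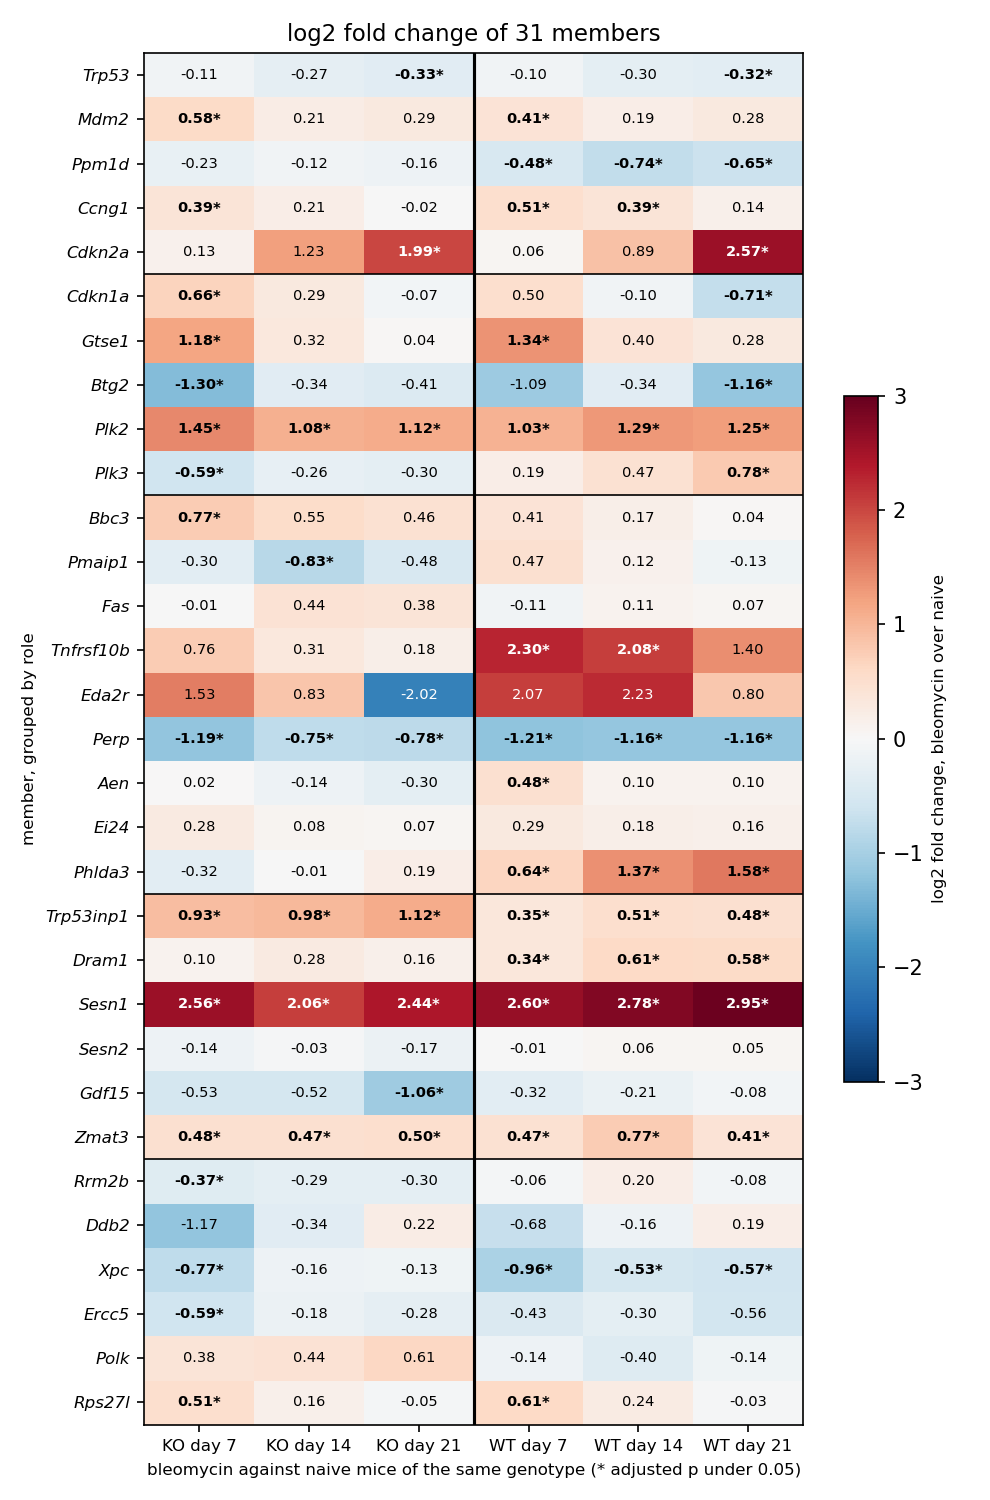
Log2 fold change of each of the 31 members (rows, grouped by role) in bleomycin mice over naive mice of the same genotype, KO columns left and WT columns right, with red for higher and blue for lower and an asterisk for an edgeR adjusted p under 0.05. Sesn1 is red in all 6 columns, between 2.06 and 2.95, and Perp is blue in all 6.

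Of the 5 genes of the p53 core and feedback, 2 were called higher at day 7 in KO mice, and 2 higher and 1 lower in WT mice. The p53 gene was called higher in none of the 6 comparisons. Trp53 (mm10 chromosome 11, 69580359 to 69591873, plus strand) had 69.8, 75.2 and 73.8 CPM in the 3 KO naive mice, then 70.4, 61.3 and 70.7 CPM at day 7, 56.9, 60.2 and 63.9 CPM at day 14, and 69.2, 43.6 and 60.7 CPM at day 21. In WT mice it had 74.9, 74 and 73.3 CPM when naive, 65.7, 68.3 and 73.2 CPM at day 7, 54, 62.4 and 64.2 CPM at day 14, and 57.7, 59.6 and 60.3 CPM at day 21. All mice of days 14 and 21 lay below all naive mice of their genotype. Trp53 was called lower at day 21, with a log2 fold change of -0.33 (SE 0.12; edgeR adjusted p = 0.045) in KO mice and -0.32 (SE 0.12; adjusted p = 0.039) in WT mice. Neither call was stable: the KO call was lost without KO day 21 mouse 2 (adjusted p = 0.27) or 3 (0.072) or without KO naive mouse 1 (0.069), 2 (0.12) or 3 (0.11), and the WT call without any 1 of the 6 mice (0.077 to 0.1).

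Mdm2 (mm10 chromosome 10, 117688875 to 117710758, minus strand) encodes the ligase that marks p53 for degradation and is itself a p53 target. It had 38.1, 35.8 and 31.6 CPM in KO naive mice, 54.5, 58.6 and 44.7 CPM at day 7, 41.9, 41.2 and 39.1 CPM at day 14, and 43.8, 40.6 and 44.4 CPM at day 21. WT mice had 43.4, 36.4 and 39.8 CPM when naive, 50.2, 59.3 and 49.1 CPM at day 7, 39.7, 51.4 and 45.7 CPM at day 14, and 48, 46.7 and 50.9 CPM at day 21. The mice of every bleomycin group except WT day 14 were above all naive mice of their genotype, and only the day 7 groups were called. Mdm2 rose 1.5-fold in KO mice at day 7 (log2 0.58, SE 0.11; edgeR adjusted p = 0.00048) and 1.33-fold in WT mice (log2 0.41, SE 0.11; adjusted p = 0.0078).

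Ccng1, a p53 target whose cyclin recruits a phosphatase to MDM2, also had its highest mean at day 7 in both genotypes. It averaged 289 ± 31.9 CPM at day 7 and 220 ± 16 CPM in naive KO mice (SD, n = 3 each), a log2 fold change of 0.39 (edgeR adjusted p = 0.02) that was lost without KO day 7 mouse 1 (0.11) or KO naive mouse 2 (0.086). In WT mice it rose at day 7 (log2 0.51, adjusted p = 0.0033) and day 14 (log2 0.39, adjusted p = 0.023). The day 14 call was lost without WT day 14 mouse 1 (0.059) or 3 (0.063) or WT naive mouse 2 (0.085) or 3 (0.087). Ppm1d, a phosphatase that switches the damage response off, fell in WT mice on all 3 days. WT means were 25.6 ± 0.487 CPM when naive, 18.4 ± 0.785 at day 7, 15.3 ± 1.47 at day 14 and 16.3 ± 2.48 at day 21 (SD, n = 3), with log2 fold changes of -0.48, -0.74 and -0.65 (edgeR adjusted p = 0.024, 0.0014 and 0.0039). The day 7 call was lost without WT day 7 mouse 1 (0.059) or 2 (0.069) or WT naive mouse 2 (0.065) or 3 (0.062). In KO mice Ppm1d started from 20 ± 0.55 CPM and none of its differences was called, with log2 fold changes of -0.23, -0.12 and -0.16.

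Cdkn2a (mm10 chromosome 4, 89274471 to 89294653, minus strand) encodes p16INK4A, which holds cells in G1, and p19ARF, which inhibits MDM2, and gene-level counts do not separate the pair. It had 0.782, 0.942 and 1.85 CPM in KO naive mice, 1.33, 0.897 and 1.68 CPM at day 7, 4.24, 2.9 and 1.32 CPM at day 14, and 3.87, 5.1 and 5.28 CPM at day 21. WT mice had 1.13, 0.881 and 1.11 CPM when naive, 1.62, 1.09 and 0.553 CPM at day 7, 2.95, 1.57 and 1.25 CPM at day 14, and 7.01, 4.26 and 7.32 CPM at day 21. The day 21 mice of both genotypes lay above every naive and day 7 mouse, while day 14 mice overlapped the naive mice in KO but not in WT mice. Against naive mice Cdkn2a rose 3.98-fold in KO mice at day 21 (log2 1.99, SE 0.45; edgeR adjusted p = 0.0029) and 5.95-fold in WT mice (log2 2.57, SE 0.46; adjusted p = 0.00025).

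**Figure D3:**
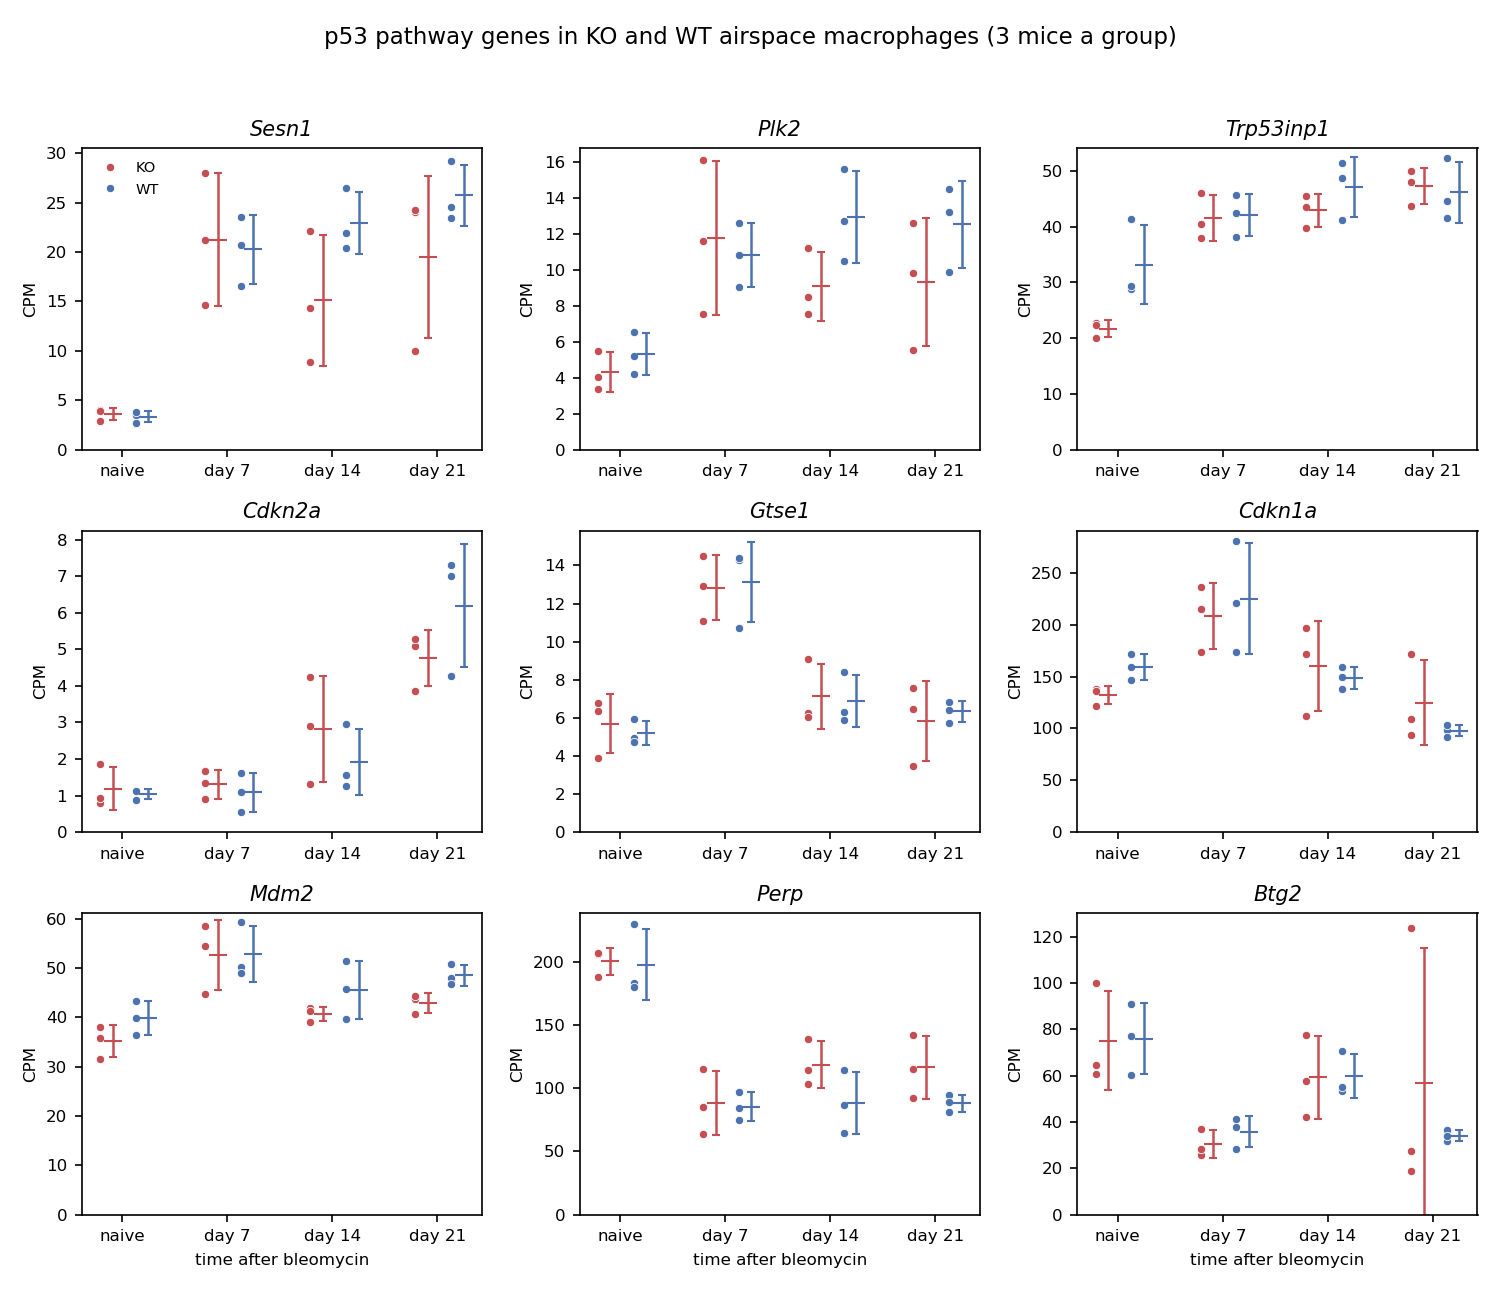
CPM of 9 members in each mouse (points) of KO (red) and WT (blue) groups by time, with the group mean (dash) and SD (bar, n = 3; the lower SD bar of Btg2 in KO day 21 mice is cut at 0). Sesn1 and Plk2 stay above naive mice on all 3 days, Gtse1, Cdkn1a and Mdm2 peak at day 7, Cdkn2a is highest at day 21, and Perp is lower on all 3 days.

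Of the 5 cell cycle arrest genes, 3 were called higher and 2 lower at day 7 in KO mice, and 2 higher and 0 lower in WT mice. Cdkn1a (mm10 chromosome 17, 29090976 to 29100727, plus strand) encodes p21, the cyclin-dependent kinase inhibitor through which p53 stops the cell cycle. It had 138, 122 and 136 CPM in KO naive mice, 236, 215 and 174 CPM at day 7, 112, 172 and 197 CPM at day 14, and 172, 109 and 94 CPM at day 21. In WT mice it had 172, 147 and 159 CPM when naive, 221, 174 and 281 CPM at day 7, 138, 159 and 150 CPM at day 14, and 98.1, 103 and 92.1 CPM at day 21. The day 7 mice lay above all naive mice in both genotypes, and the WT day 21 mice lay below all of them. At day 7 Cdkn1a rose 1.58-fold in KO mice (log2 0.66, SE 0.21; edgeR adjusted p = 0.017), a call lost without KO day 7 mouse 1 (0.075) or KO naive mouse 2 (0.066). The WT difference at day 7 was 0.50 and was not called. At day 21 Cdkn1a fell 1.63-fold in WT mice (log2 -0.71, SE 0.21; adjusted p = 0.012), whereas the KO value was -0.07. KO day 21 mouse 1, which stood apart above, lay over all KO naive mice, and mice 2 and 3 of that group lay below all of them. The difference of the 2 responses was 0.63 (adjusted p = 0.43).

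Gtse1 (mm10 chromosome 15, 85859745 to 85876573, plus strand), a microtubule-binding protein made in the G2 and S phases that restrains p53, was called higher at day 7 and on no later day. It had 6.37, 3.91 and 6.76 CPM in KO naive mice, 12.9, 11.1 and 14.5 CPM at day 7, 9.09, 6.24 and 6.04 CPM at day 14, and 3.46, 6.47 and 7.55 CPM at day 21. WT mice had 4.93, 4.73 and 5.92 CPM when naive, 10.7, 14.3 and 14.4 CPM at day 7, 5.88, 8.42 and 6.33 CPM at day 14, and 6.41, 5.75 and 6.84 CPM at day 21. The day 7 mice stood clear of the naive mice in both genotypes, by 2.26-fold in KO mice (edgeR adjusted p = 0.0011) and 2.52-fold in WT mice (adjusted p = 0.00036). Genes of dividing cells moved with it: of 25 proliferation genes, 21 were called higher and 1 lower in KO mice at day 7, and 18 higher and 1 lower in WT mice. Their summed level was 1260 to 1590 CPM in KO day 7 and 878 to 990 CPM in KO naive mice, and 1290 to 1400 CPM in WT day 7 and 856 to 968 CPM in WT naive mice. At day 21 it was 604 to 832 CPM in KO mice and 673 to 698 CPM in WT mice. The part of these genes in the Gtse1 and Cdkn1a values was not tested.

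Plk2 (mm10 chromosome 13, 110395046 to 110400844, plus strand), a stress-induced kinase that is a p53 target, was called higher on all 3 days in both genotypes. It had 5.5, 4.03 and 3.35 CPM in KO naive mice, 11.6, 16.1 and 7.53 CPM at day 7, 11.2, 8.45 and 7.54 CPM at day 14, and 5.55, 12.6 and 9.78 CPM at day 21. WT mice had 6.53, 4.17 and 5.21 CPM when naive, 9.05, 12.6 and 10.8 CPM at day 7, 10.5, 12.7 and 15.6 CPM at day 14, and 14.5, 9.84 and 13.2 CPM at day 21. Every bleomycin mouse was above the naive mice of its genotype, although KO day 21 mouse 1 was only just so. The rises were 2.73-fold, 2.11-fold and 2.17-fold in KO mice (edgeR adjusted p = 0.00076, 0.016 and 0.0098) and 2.05-fold, 2.45-fold and 2.37-fold in WT mice (adjusted p = 0.0098, 0.0023 and 0.0031). The KO day 14 call was lost without KO day 14 mouse 1 (0.09) or KO naive mouse 2 (0.062) or 3 (0.085), the KO day 21 call without KO day 21 mouse 2 (0.08) or KO naive mouse 3 (0.059), and the WT day 7 call without WT naive mouse 2 (0.051).

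Btg2 (mm10 chromosome 1, 134075170 to 134079120, minus strand), an antiproliferative p53 target that is also an immediate early gene, was called lower in 2 comparisons. It had 60.8, 64.8 and 100 CPM in KO naive mice, 25.8, 28.5 and 37.2 CPM at day 7, 42.3, 57.8 and 77.7 CPM at day 14, and 124, 18.8 and 27.5 CPM at day 21. WT mice had 90.9, 77.1 and 60.2 CPM when naive, 28.2, 38 and 41.1 CPM at day 7, 70.8, 53.4 and 55.3 CPM at day 14, and 31.7, 36.5 and 33.8 CPM at day 21. Mice of day 7 lay below all naive mice in both genotypes, as did WT mice of day 21, while KO day 21 mouse 1 was above every naive mouse. Btg2 fell 2.47-fold in KO mice at day 7 (log2 -1.30, SE 0.44; edgeR adjusted p = 0.027), a call lost without KO day 7 mouse 1 (0.094) or 2 (0.078) or KO naive mouse 3 (0.11). It fell 2.23-fold in WT mice at day 21 (log2 -1.16, SE 0.44; adjusted p = 0.049), and that call was lost without any 1 of the 6 mice (0.056 to 0.12) and with DESeq2 (0.051). Plk3, a stress-response kinase of the same family as Plk2, was called lower in KO mice at day 7 and higher in WT mice at day 21, and is described with the genotype comparison.

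Of the 9 apoptosis genes and death receptors, 1 was called higher and 1 lower in KO mice at day 7, and 3 higher and 1 lower in WT mice. Perp (mm10 chromosome 10, 18845020 to 18857073, plus strand) was called lower in all 6 comparisons. It had 188, 206 and 207 CPM in KO naive mice, 85.3, 64.1 and 115 CPM at day 7, 103, 114 and 139 CPM at day 14, and 142, 115 and 92.5 CPM at day 21. WT mice had 230, 183 and 180 CPM when naive, 97.2, 74.7 and 83.9 CPM at day 7, 114, 86.5 and 64.6 CPM at day 14, and 94.6, 88.9 and 81.2 CPM at day 21. All 18 bleomycin mice were below all 6 naive mice. The falls were 2.27-fold, 1.69-fold and 1.72-fold in KO mice (edgeR adjusted p = 0.00015, 0.013 and 0.0086) and 2.32-fold, 2.23-fold and 2.24-fold in WT mice (adjusted p = 0.00012, 0.00022 and 0.00021). The KO day 14 call was lost without KO day 14 mouse 1 (0.075) or 2 (0.05), and the KO day 21 call without mouse 3 of that day (0.06). Of 20 genes of resident alveolar macrophages, 16, 4 and 0 were called lower and 0, 1 and 0 higher in KO mice at days 7, 14 and 21. In WT mice 15, 12 and 10 were called lower and 0, 1 and 2 higher. Their part in the Perp values was not tested.

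Phlda3 (mm10 chromosome 1, 135766119 to 135769136, plus strand), which inhibits AKT signalling as a p53 target, was called higher in WT mice on all 3 days and in KO mice on none. It had 78.6, 65.8 and 51.4 CPM in KO naive mice, 54.1, 60 and 42.6 CPM at day 7, 95.2, 50.8 and 48.7 CPM at day 14, and 59.4, 68.3 and 95.6 CPM at day 21. WT mice had 26.6, 44.5 and 29.2 CPM when naive, 53.6, 46.8 and 56.3 CPM at day 7, 104, 89.4 and 65.5 CPM at day 14, and 96.4, 105 and 98.4 CPM at day 21. The KO groups overlapped each other, while every WT bleomycin mouse was above every WT naive mouse. In WT mice Phlda3 rose 1.56-fold, 2.58-fold and 2.99-fold (edgeR adjusted p = 0.05, just under the threshold, then 0.00035 and 8.5e-05). The WT day 7 call was lost without WT day 7 mouse 1 (0.099), 2 (0.051) or 3 (0.12) or WT naive mouse 1 (0.17) or 3 (0.15).

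The genes of the BH3-only killers of the BCL2 family were called in 1 comparison each. Bbc3, which encodes PUMA, had 8.14 to 9.78 CPM in KO day 7 mice, against 4.55 to 5.7 CPM in KO naive mice, and rose by 0.77 on the log2 scale (edgeR adjusted p = 0.012), a call lost without KO naive mouse 3 (0.061). In WT mice its day 7 value was 0.41 and was not called. Pmaip1, which encodes NOXA, fell in KO mice at day 14, to 5.18 to 6.09 CPM, against 7.8 to 12.8 CPM in naive mice (log2 -0.83; edgeR adjusted p = 0.017). That call was lost without KO day 14 mouse 2 (0.058) or 3 (0.051) or KO naive mouse 2 (0.13). Aen, a nuclease that degrades DNA in dying cells, rose in WT mice at day 7 (log2 0.48; adjusted p = 0.026), although the groups overlapped, with 21.8 to 28.2 CPM against 12.3 to 23.2 CPM in naive mice. The Aen call was lost without WT day 7 mouse 2 (0.086) or 3 (0.07) or WT naive mouse 1 (0.14).

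The death receptor genes were low or flat. Fas, which encodes the receptor of Fas ligand, had 7.39 to 14.9 CPM over all KO mice and 8.66 to 13.9 CPM over all WT mice, and no comparison was called. Tnfrsf10b, the mouse TRAIL receptor gene, had 0.119 to 1.73 CPM over the 24 mice. It rose in WT mice at day 7 to 1.3 ± 0.551 CPM and at day 14 to 1.12 ± 0.116 CPM, against 0.273 ± 0.177 CPM in naive mice (SD, n = 3; edgeR adjusted p = 0.0058 and 0.013). The day 14 call was lost without WT naive mouse 3 (0.072), and at these levels the fitted fold change moves with single libraries. Eda2r, a receptor for ectodysplasin, did not exceed 1.09 CPM in any mouse and was at 0 in several. Ei24, an endoplasmic reticulum protein gene first found as induced by p53 and etoposide, had 69.8 to 120 CPM over the 24 mice and was not called.

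Of the 6 genes of autophagy, redox and stress signalling, 3 were called higher on each day in KO mice and 4 on each day in WT mice, and 1 was called lower, in KO mice at day 21. Sesn1 (mm10 chromosome 10, 41809935 to 41908424, plus strand) showed the largest called fold change of the 31 genes, in WT mice at day 21. It encodes sestrin 1, a p53 target that restrains mTORC1 and counters oxidative stress, and its RNA is also raised by FOXO factors. It had 3.98, 2.9 and 3.9 CPM in KO naive mice, 21.2, 28 and 14.6 CPM at day 7, 22.1, 14.3 and 8.88 CPM at day 14, and 10, 24.1 and 24.3 CPM at day 21. WT mice had 3.53, 2.67 and 3.76 CPM when naive, 23.5, 20.7 and 16.6 CPM at day 7, 20.4, 21.9 and 26.5 CPM at day 14, and 24.6, 29.2 and 23.4 CPM at day 21. Every bleomycin mouse was at more than 8 CPM and every naive mouse under 4 CPM. The KO mice of days 14 and 21 were spread more widely than the WT mice, and the lowest of them were KO day 14 mouse 3 and KO day 21 mouse 1. The summed level of recruited macrophage genes was lowest of its group in each of that pair, and also in KO day 7 mouse 3, which had the lowest Sesn1 value of KO day 7 mice. In WT mice the lowest Sesn1 value and the lowest sum fell in mouse 3 at day 7 and in mouse 1 at day 14. At day 21 WT mouse 3 had the lowest Sesn1 value of its group and the highest sum, 23600 CPM. The part of the recruited macrophage genes in the Sesn1 values was not tested.

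The fold changes of Sesn1 were 5.92, 4.18 and 5.41 in KO mice at days 7, 14 and 21 (log2 2.56, 2.06 and 2.44; edgeR adjusted p = 5.6e-06, 0.00012 and 1.6e-05). They were 6.08, 6.87 and 7.72 in WT mice (log2 2.60, 2.78 and 2.95; adjusted p = 5.5e-06, 2.8e-06 and 1.6e-06). No alternative ended any of these 6 calls, and leaving out a mouse moved the log2 values between 1.69 and 3.06. Its paralogue Sesn2, which is raised by amino acid and oxidative stress, had group means of 24.4 to 27.6 CPM and was called in no comparison.

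Trp53inp1 (mm10 chromosome 4, 11156431 to 11174379, plus strand), a nuclear and autophagy protein that raises p53 activity, was called higher in all 6 comparisons. It had 22.8, 20 and 22.4 CPM in KO naive mice, 38, 40.5 and 46.1 CPM at day 7, 45.5, 43.6 and 39.7 CPM at day 14, and 48.1, 43.7 and 50 CPM at day 21. WT mice had 41.4, 28.8 and 29.4 CPM when naive, 42.5, 45.8 and 38.2 CPM at day 7, 41.2, 48.8 and 51.5 CPM at day 14, and 52.3, 41.6 and 44.6 CPM at day 21. In KO mice all bleomycin values were well above the naive ones, while WT naive mouse 1 overlapped the WT mice of days 7 and 14. The rises were 1.91-fold, 1.97-fold and 2.17-fold in KO mice (edgeR adjusted p = 2e-05, 2.4e-05 and 4.1e-06) and smaller in WT mice, with log2 fold changes of 0.35, 0.51 and 0.48 (adjusted p = 0.046, 0.0058 and 0.0087). The WT day 7 call was lost without WT day 7 mouse 1 (0.087) or 2 (0.13) or WT naive mouse 2 (0.18) or 3 (0.17), and the WT day 21 call without WT day 21 mouse 1 (0.058) or WT naive mouse 2 (0.05).

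Zmat3, an RNA-binding zinc finger gene, and Dram1, a lysosomal protein gene of autophagy, rose by less. Zmat3 averaged 38.2 ± 1.97, 38.1 ± 3.03 and 38.8 ± 4.91 CPM in KO mice at days 7, 14 and 21 and 27.4 ± 3.54 CPM in KO naive mice (SD, n = 3). In WT mice it averaged 38.2 ± 7.38, 47.2 ± 5.14 and 36.7 ± 1.09 CPM on those days and 27.7 ± 0.76 CPM when naive. The 6 log2 fold changes of Zmat3 ran from 0.41 to 0.77, with edgeR adjusted p from 0.00012 to 0.019, and no bleomycin group overlapped its naive mice. Single mice ended 4 of these calls: WT day 7 mouse 3 (0.071) at WT day 7, WT day 21 mouse 3 (0.063) or WT naive mouse 3 (0.057) at WT day 21, KO day 14 mouse 2 (0.068) or KO naive mouse 2 (0.094) at KO day 14, and KO day 21 mouse 3 (0.06) or KO naive mouse 2 (0.057) at KO day 21.

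Dram1 averaged 121 ± 13.6, 146 ± 11.3 and 143 ± 9.12 CPM in WT mice at days 7, 14 and 21 and 95.7 ± 4.77 CPM in WT naive mice (SD, n = 3). It was called on all 3 days in WT mice (log2 0.34, 0.61 and 0.58; edgeR adjusted p = 0.017, 0.00019 and 0.00029). The day 7 call was lost without WT day 7 mouse 1 (0.1) or WT naive mouse 3 (0.059). In KO mice the log2 values were 0.10, 0.28 and 0.16, and none was called.

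Gdf15 (mm10 chromosome 8, 70629393 to 70632456, minus strand), a secreted stress cytokine that is a p53 target in many cells, was called higher in no comparison. It had 28.6, 23.2 and 25.3 CPM in KO naive mice, 22.4, 22.4 and 8.55 CPM at day 7, 23.6, 10.9 and 19.4 CPM at day 14, and 15.8, 10.6 and 10.7 CPM at day 21. WT mice had 20.2, 25.8 and 30.7 CPM when naive, 20.3, 20.3 and 21.1 CPM at day 7, 26, 23.9 and 16.5 CPM at day 14, and 14.5, 26.5 and 31.7 CPM at day 21. The KO day 21 mice lay below all KO naive mice, whereas the WT day 21 mice spanned the whole WT naive range. Gdf15 fell 2.08-fold in KO mice at day 21 (log2 -1.06, SE 0.33; edgeR adjusted p = 0.024), a call lost without KO day 21 mouse 2 (0.1) or 3 (0.098) or KO naive mouse 1 (0.076) or 3 (0.055).

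Of the 6 genes of nucleotide supply and DNA repair, 1 was called higher and 3 lower at day 7 in KO mice, and 1 higher and 1 lower in WT mice. The gene called higher was Rps27l in both genotypes, a ribosomal protein gene counted with this class. Rrm2b, Ddb2, Xpc, Ercc5 and Polk were called higher in none of the 6 comparisons. Xpc, the damage sensor of global nucleotide excision repair, averaged 14.9 ± 1.64 CPM at day 7 and 25.4 ± 1.29 CPM in naive KO mice, and 15.4 ± 3.63 CPM at day 7 and 29.9 ± 1.86 CPM in naive WT mice (SD, n = 3 each). It fell 1.7-fold in KO and 1.94-fold in WT mice at day 7 (edgeR adjusted p = 0.0024 and 0.00034). At days 14 and 21 it was still lower in WT mice (log2 -0.53 and -0.57; adjusted p = 0.03 and 0.019), while the KO values were -0.16 and -0.13. KO day 21 mice 1, 2 and 3 had 32.3, 18.4 and 18.8 CPM, against 23.9 to 26.3 CPM in KO naive mice, so mouse 1 alone lay above them. The difference of the KO and WT responses was not called for Xpc on any day. The WT day 14 call was lost without any 1 of WT day 14 mice 1 (0.067), 2 (0.083) and 3 (0.06) or WT naive mice 2 (0.061) and 3 (0.092), and the WT day 21 call without mouse 3 of day 21 (0.064) or of the naive group (0.064).

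Rrm2b, the p53-induced subunit of ribonucleotide reductase, averaged 13.3 ± 2.21 CPM in KO day 7 and 17.1 ± 1.13 CPM in KO naive mice (SD, n = 3 each; log2 -0.37, edgeR adjusted p = 0.03). Ercc5, the repair nuclease XPG, averaged 6.25 ± 2.27 CPM in KO day 7 and 9.4 ± 0.541 CPM in KO naive mice (log2 -0.59, adjusted p = 0.04). These were their only calls. The Rrm2b call was lost without KO day 7 mouse 3 (0.2) or KO naive mouse 1 (0.069) or 3 (0.11), and the Ercc5 call without KO day 7 mouse 1 (0.22) or KO naive mouse 1 (0.11), 2 (0.072) or 3 (0.07). Ddb2, which recognises ultraviolet damage, had 0.226 to 2.39 CPM over the 24 mice, and Polk, a translesion polymerase, had 3.61 to 12.7 CPM, and neither was called.

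Rps27l is a p53 target whose protein resembles ribosomal protein S27, so reads of the related gene Rps27 could be shared with it. It averaged 59.7 ± 9.18 CPM in KO day 7 and 41.8 ± 3.85 CPM in KO naive mice (log2 0.51, edgeR adjusted p = 0.017). In WT mice it averaged 66.9 ± 20.4 CPM at day 7 and 43.9 ± 8.04 CPM when naive (log2 0.61, adjusted p = 0.0057), and the WT groups overlapped. The KO call was lost without KO day 7 mouse 1 (0.1) or KO naive mouse 1 (0.054) or 2 (0.073), and the WT call without WT day 7 mouse 1 (0.066), the library with the highest Rn45s share.

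Day 21 was set against day 7 within each genotype. In KO mice 2 members were called higher and 4 lower at day 21, where 7.16% of all genes were higher and 7.73% lower. In WT mice 2 were higher and 3 lower, against 5.49% and 6.15% of all genes. Cdkn2a was higher at day 21 in both genotypes, by 1.86 on the log2 scale in KO mice (edgeR adjusted p = 0.0072) and by 2.52 in WT mice (adjusted p = 0.0012). Gtse1 was lower at day 21 in both, with log2 values of -1.14 in KO (adjusted p = 0.0041) and -1.05 in WT mice (adjusted p = 0.0085), as was Cdkn1a, with -0.73 in KO (adjusted p = 0.019) and -1.20 in WT mice (adjusted p = 0.00076). Rps27l was lower as well, with -0.56 in KO (adjusted p = 0.022) and -0.64 in WT mice (adjusted p = 0.013). Xpc (log2 0.64, adjusted p = 0.02) and Ccng1 (log2 -0.41, adjusted p = 0.031) were called in KO mice, and Phlda3 (log2 0.94, adjusted p = 0.017) in WT mice.

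With the KO mice of days 7 and 21 fitted alone, edgeR lost the calls of Ccng1 (adjusted p = 0.16), Cdkn1a (0.13), Gtse1 (0.076), Rps27l (0.062) and Xpc (0.18), and with the WT mice fitted alone that of Rps27l (0.072). Without KO day 14 mouse 3 and KO day 21 mouse 1, the calls of Rps27l (0.051) and Xpc (0.18) were lost. Single mice also ended calls. Those of Cdkn1a, Ccng1 and Rps27l were lost without KO day 7 mouse 1 (adjusted p = 0.099, 0.17 and 0.13), without KO day 21 mouse 2 (0.067, 0.13 and 0.052) or without KO day 21 mouse 3 (0.1, 0.07 and 0.056). Without KO day 7 mouse 2 the calls of Cdkn1a (0.056), Rps27l (0.054) and Xpc (0.05) were lost, and without KO day 7 mouse 3 that of Ccng1 (0.053). That of Xpc was also lost without KO day 7 mouse 1 (0.11) or KO day 21 mouse 1 (0.18). In WT mice the Rps27l call was lost without WT day 7 mouse 1 (0.1) or WT day 21 mouse 1 (0.066), and the Phlda3 call without WT day 7 mouse 2 (0.06) or WT day 21 mouse 2 (0.059).

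The design also asks whether loss of Siglec-F alters these genes. In naive mice 1 member was called between KO and WT mice, where 0.546% of all genes were called in either direction. Trp53inp1 was 1.52-fold lower in KO naive mice, at 20 to 22.8 CPM, against 28.8 to 41.4 CPM in WT naive mice (log2 -0.61, SE 0.13; edgeR adjusted p = 0.044). The 3 KO mice were all below the 3 WT mice. The call was lost without KO naive mouse 1 (0.15), 2 (0.22) or 3 (0.12) or WT naive mouse 1 (0.3) or 3 (0.067), and with the 2 groups fitted alone (0.19). After bleomycin the ranges overlapped, at 38 to 50 CPM in KO mice and 38.2 to 52.3 CPM in WT mice.

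After bleomycin, no member was called between KO and WT mice at day 7, day 14, day 21 or averaged over the 3 days. Of all genes 0.00792%, 0.135%, 0.095% and 0.507% were called in these comparisons. At an unadjusted p under 0.05 the edgeR model had 0, 4, 3 and 6 of the 31 members (0%, 12.9%, 9.68% and 19.4%), against 4.59%, 10%, 9.78% and 13% of all genes. DESeq2 called 0 members in each, and 0.119%, 1.13%, 1.04% and 2.07% of all genes. The 31 log2 differences between KO and WT mice ran from -0.56 to 0.27 at day 7, from -1.37 to 0.54 at day 14 and from -2.79 to 0.74 at day 21.

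The response to bleomycin in KO mice was also set against that in WT mice, as the difference of their log2 fold changes. The edgeR model called no member at day 7, 14 or 21, where 0.00792%, 0.332% and 0.332% of all genes were called. At an unadjusted p under 0.05 it had 4, 9 and 7 members (12.9%, 29% and 22.6%), against 6.14%, 10.3% and 10.8% of all genes. DESeq2 called 0, 1 and 3 of the 31, and 0.309%, 1.69% and 2.07% of all genes. Phlda3 had the lowest p on days 14 and 21, with differences of -1.38 (SE 0.35; edgeR adjusted p = 0.097) and -1.39 (SE 0.35; adjusted p = 0.092). DESeq2 called both (adjusted p = 0.011 each). They also passed the threshold without WT naive mouse 2 (0.049 and 0.047), the day 14 difference without KO day 14 mouse 1 (0.0062) and the day 21 difference without KO day 21 mouse 3 (0.044).

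The naive mice entered each of these differences. Phlda3 in naive mice was 51.4 to 78.6 CPM in KO and 26.6 to 44.5 CPM in WT mice, without overlap (log2 0.97, SE 0.25; edgeR adjusted p = 0.1, DESeq2 adjusted p = 0.014, and 0.045 with edgeR without WT naive mouse 2). At day 21 it was 59.4 to 95.6 CPM in KO and 96.4 to 105 CPM in WT mice (log2 -0.42, adjusted p = 0.62). Plk3 had 43.7 to 60.2 CPM in KO naive and 33.9 to 36.5 CPM in WT naive mice, and 39 to 48.1 CPM in KO day 21 and 54.5 to 66.2 CPM in WT day 21 mice. Within genotypes Plk3 fell in KO mice at day 7 (log2 -0.59, edgeR adjusted p = 0.038) and rose in WT mice at day 21 (log2 0.78, adjusted p = 0.0094). The KO day 7 call was lost without KO day 7 mouse 1 (0.059), 2 (0.071) or 3 (0.14) or KO naive mouse 1 (0.13) or 2 (0.1).

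The difference of responses for Plk3 at day 21 was -1.08 (SE 0.31; edgeR adjusted p = 0.13; DESeq2 0.035; 0.046 with the groups compared fitted alone). That for Trp53inp1 at day 21 was 0.64 (SE 0.19; edgeR adjusted p = 0.14; DESeq2 0.049). That for Ppm1d at day 14 was 0.63 (SE 0.23; adjusted p = 0.28), and 0.024 without KO day 14 mouse 1. In naive mice the genotypes did not overlap for Phlda3, Plk3, Trp53inp1 or Ppm1d. Nor did they for Cdkn1a, Dram1, Xpc, Polk, Rrm2b or Pmaip1. How many of all genes were separated in this way was not counted, so no conclusion is drawn from these separations. Of the genes named, only Trp53inp1 was called by edgeR between naive KO and WT mice.

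**Figure D4:**
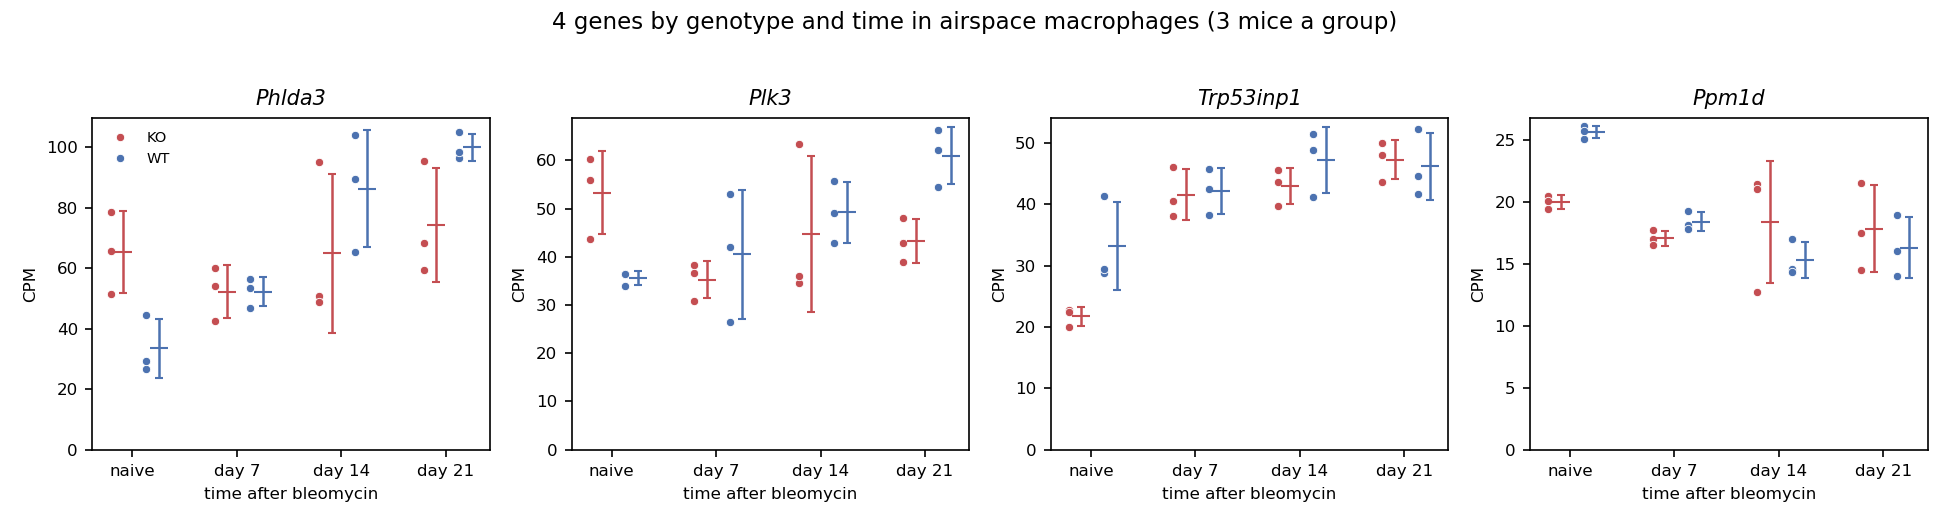
CPM of Phlda3, Plk3, Trp53inp1 and Ppm1d in each mouse (points) of KO (red) and WT (blue) groups by time, with the group mean (dash) and SD (bar, n = 3). In naive mice the genotypes do not overlap for any of the 4 genes, with Phlda3 and Plk3 higher and Trp53inp1 and Ppm1d lower in KO mice. Cdkn1a, Dram1, Xpc, Polk, Rrm2b and Pmaip1 (not shown) also do not overlap between naive mice of the genotypes. How many of all genes do not overlap was not counted, so no conclusion is drawn from these separations.

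Other genes of the p53 pathway were counted from a list of 37 genes, of which 32 were tested. In KO mice 12, 8 and 9 were called higher and 3, 5 and 5 lower at days 7, 14 and 21, and in WT mice 14, 10 and 10 were higher and 2, 4 and 4 lower. As shares of the 32, those higher were 37.5%, 25% and 28.1% in KO mice, against 19.7%, 12% and 15% of all genes, and 43.8%, 31.2% and 31.2% in WT mice, against 20.2%, 18.7% and 18.8%. Those lower were 9.38%, 15.6% and 15.6% in KO mice, against 14.4%, 4.84% and 6.89% of all genes, and 6.25%, 12.5% and 12.5% in WT mice, against 15.3%, 13.4% and 13.7%. Bax, the pore-forming killer that p53 raises, averaged 95.2 ± 17.9 CPM in KO day 7 and 72.7 ± 0.932 CPM in KO naive mice (log2 0.39, edgeR adjusted p = 0.0077). It averaged 104 ± 7.29 CPM in WT day 7 and 70.4 ± 3.68 CPM in WT naive mice (SD, n = 3 each; log2 0.56, adjusted p = 0.00041), and was called on no other day. Mdm4, the partner of MDM2 in restraining p53, was called in none of the 6 comparisons. Gadd45a, a damage-induced growth arrest gene, averaged 5.39 ± 0.883 CPM in KO day 21 and 1.68 ± 0.273 CPM in KO naive mice (adjusted p = 1e-05), and 9.05 ± 2.11 CPM in WT day 21 and 1.31 ± 0.111 CPM in WT naive mice (adjusted p = 3.1e-08).

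Thbs1, the matrix protein gene thrombospondin 1, had 131 to 266 CPM in KO day 7 and 0.0231 to 0.161 CPM in KO naive mice (edgeR adjusted p = 7.4e-07), and 92.7 to 133 CPM in WT day 7 and 0.0294 to 0.119 CPM in WT naive mice (adjusted p = 2.2e-06). Tap1, a peptide transporter for antigen presentation, averaged 121 ± 2.29 CPM in KO day 7 and 45.8 ± 5.05 CPM in KO naive mice (adjusted p = 4.2e-06), and 131 ± 8.49 CPM in WT day 7 and 43.3 ± 2.9 CPM in WT naive mice (SD, n = 3 each; edgeR adjusted p = 9.9e-07).

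Among 40 genes that sense DNA damage or repair strand breaks, 5, 0 and 0 were called higher and 3, 7 and 6 lower in KO mice at days 7, 14 and 21. In WT mice 8, 3 and 0 were higher and 4, 7 and 11 lower. The shares called higher were 12.5%, 0% and 0% in KO and 20%, 7.5% and 0% in WT mice. That of WT day 7 was close to the 20.2% of all genes, and the others were under the share of all genes given above. The shares called lower were 7.5%, 17.5% and 15% in KO and 10%, 17.5% and 27.5% in WT mice, under the share of all genes at day 7 and over it at days 14 and 21. Atm was called only in WT mice at day 21 (log2 -0.59, edgeR adjusted p = 0.0077), and Atr in WT mice at day 7 (log2 -0.67, adjusted p = 0.005) and day 21 (log2 -0.62, adjusted p = 0.01), each lower. The checkpoint kinase gene Chek1 rose in KO mice at day 7 (log2 0.93, adjusted p = 0.034), where it had 4.27 to 8.09 CPM against 3 to 3.54 CPM in KO naive mice. It fell in WT mice at day 14 (1.99-fold, adjusted p = 0.029) and day 21 (2.78-fold, adjusted p = 0.0027). Chek2 rose in WT mice at day 7 (log2 0.59, adjusted p = 7e-04) and day 14 (log2 0.35, adjusted p = 0.032), and was called on no day in KO mice. The difference of responses between KO and WT mice was called for none of these 4 genes on any day, with edgeR adjusted p of 0.2 or more.

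At day 7 the strand break genes with the smallest p moved in both genotypes. Fanca, a Fanconi anaemia gene of crosslink repair, averaged 12.7 ± 1.79 CPM in KO day 7 and 4.16 ± 0.886 CPM in KO naive mice (edgeR adjusted p = 5.5e-05), and 10.8 ± 0.889 CPM in WT day 7 and 3.67 ± 0.6 CPM in WT naive mice (adjusted p = 9e-05). Parp1, which marks DNA breaks with poly(ADP-ribose), averaged 95.4 ± 8.37 CPM in KO day 7 and 55 ± 3.48 CPM in KO naive mice (adjusted p = 0.00013), and 89.4 ± 13.4 CPM in WT day 7 and 54.9 ± 8.57 CPM in WT naive mice (adjusted p = 0.00044). Xrcc5, which encodes the end-binding protein Ku80, averaged 19 ± 2.17 CPM in KO day 7 and 48.3 ± 1.77 CPM in KO naive mice (adjusted p = 3.4e-05), and 22.6 ± 4.4 CPM in WT day 7 and 51.3 ± 0.786 CPM in WT naive mice (adjusted p = 0.00013). Blmh, the hydrolase that inactivates bleomycin, averaged 52.8 ± 2.32 CPM in KO day 7 and 40.6 ± 1.54 CPM in KO naive mice (log2 0.38, adjusted p = 0.013), and was called in no other comparison of bleomycin against naive mice. The single-library alternatives were run for the 31 members and not for these other genes.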

How the data were processed

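The authors deposited expected counts, estimated read counts per gene for each mouse, and per the submitters' processing notes they used mm10, bcl2fastq, DESeq2 1.42.0 and limma 3.58.1. The sources used here do not give the aligner, counting tool or strand setting, so genes that overlap or share sequence are uncertain. Each mouse was sequenced in 2 runs, and whether a column sums both is not stated. Libraries were made from 200 ng RNA and read as 150 bp pairs. A further 24 columns of other samples were not used.

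Counts were rounded, filtered with filterByExpr (minimum count 10, minimum total 15) and scaled with TMM factors in edgeR 4.0.16 (R 4.3.3). A quasi-likelihood model with 8 group means was fitted over 24 mice and 12634 genes, and 16 comparisons were made with Benjamini-Hochberg adjustment. CPM are TMM-scaled. The p-values set differences of group means against the spread between mice of a group, estimated over all 8 groups together. This spread exceeded counting error (chi-square 13.4 to 226 per degree of freedom). It was unequal, with 18 to 21.9 in WT day 21 and 52.1 to 215 in WT naive mice. The steps were tested on simulated data. Whether a mouse number marks a shared litter or day is not given. By the rule that every same-numbered pair correlates over 0.1, the numbers paired WT day 7 with WT naive mice (r 0.183 to 0.598) and KO day 7 with WT naive mice (0.152 to 0.377), and none of the other 26 pairs of groups.

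The 31 members and the gene lists were chosen with earlier results of these data known. Values for every mouse are given for members called at 2-fold or more with a mean of at least 5 CPM, and for Trp53, Mdm2 and Cdkn1a. From the other lists, at most 4 genes of smallest p and a fixed panel (Atm, Atr, Chek1, Chek2, Mdm4, Bax and Blmh) are named, and some genes are not reported here. Alternatives were DESeq2, RLE scaling, no filter, the compared groups alone, a replicate block and each mouse left out. Leaving out the 2 KO mice that stood apart, and a replicate block with WT day 7 and WT naive mice alone, were added after seeing the data.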

Additional observations from a re-analysis of the deposited data

How the results depend on the processing

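Of 215 alternative counts of members called, 188 stayed within 1.5 times the count reported and 27 moved. With the compared groups fitted alone, 9 members were called at WT day 7 (15 in the model of all mice), 5 at KO day 21 (8), 0 between KO and WT naive mice (1), 1 for the difference of responses at day 21 (0) and 1 for KO day 21 against day 7 (6). DESeq2 called 2 members between KO and WT naive mice, and 1 and 3 for the difference of responses at days 14 and 21. Leaving out 1 mouse gave 10 to 14 members at KO day 7, 3 to 7 at KO day 14, 4 to 11 at KO day 21, 10 to 15 at WT day 7, 8 to 12 at WT day 14 and 10 to 15 at WT day 21. It gave 0 to 2 between KO and WT naive mice and 0 between KO and WT mice at each day after bleomycin. For the difference of responses it gave 0 at day 7, 0 to 2 at day 14 and 0 to 1 at day 21, and for day 21 against day 7 it gave 2 to 7 in KO and 4 to 6 in WT mice. Without KO day 14 mouse 3 and KO day 21 mouse 1, chosen after seeing the data, 8 members were called at KO day 14, 11 at KO day 21 and 5 for KO day 21 against day 7, and 0 between KO and WT mice at day 14, at day 21, averaged over the bleomycin days and for the differences of responses at days 14 and 21. The other comparisons were not run without them. Of 1565 alternatives for single members, 1403 gave the same call, 150 lost it, 12 gained it and 0 reversed direction. The cause of these changes was not tested.

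Over 84 pairs of same-numbered mice, 3 in each of 28 pairs of groups, the correlation ran from -0.642 to 0.598 with a median of -0.003. With the replicate block in the model of all mice, 15 members were called at WT day 7 and 0 between KO and WT naive mice, where Trp53inp1 had an adjusted p of 0.06, and Btg2 was not called at WT day 21 (0.058). RLE scaling moved the median of all genes by at most 0.02 on the log2 scale. With 3 mice a group, differences of 2-fold and more may also be missed.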
